A study of Mus musculus with 4 samples.

Results

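The transcription factor NF-κB and its feedback inhibitors were described in tumor-associated macrophages (TAMs) through 10 genes, 5 for the subunits and 5 for inhibitors. The genes were chosen by symbol for their known place in the pathway, with no value entering the rule but with earlier results of these data known, and each symbol was matched to the Entrez identifier of the deposited tables. All 10 genes were found in the tables of all 4 libraries, among 16739 genes with a value in any library. RNA was sequenced from CD45+ CD11b+ F4/80+ cells, the surface pattern of macrophages, sorted by flow cytometry from subcutaneous B16-F10 tumors 16 days after injection. B16-F10 is a mouse melanoma line of C57BL/6 origin, and the hosts were C57BL/6 mice of 6 to 8 weeks at injection. One group of 2 libraries came from WT mice and the other group of 2 from Trim24 flox/flox LysM-Cre mice, in which the lysozyme M promoter drives Cre in myeloid cells, including macrophages and neutrophils. The methods name WT littermates as controls, and the sources used here do not say which floxed or Cre alleles those controls carried or whether 1 library is 1 mouse or a pool. The p-values below therefore measure the spread between these libraries.

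NF-κB is a family of dimers built from the products of Nfkb1, Nfkb2, Rel, Rela and Relb. In resting cells IκB proteins hold the dimers in the cytoplasm. Receptors for TNF, IL-1 and microbial products activate the IKK kinases, which mark IκB for degradation, and the freed dimers enter the nucleus and bind κB sites. Several inhibitors are themselves NF-κB targets, so that an active pathway restores its own brakes. In macrophages this loop shapes the output of inflammatory cytokines and chemokines.

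The libraries are called WT 1, WT 2, KO 1 and KO 2 after their labels, and values are always given in that order. Their expected counts, the read counts that RSEM assigns to each gene, summed to 4817292, 4476122, 4917063 and 5172407. Values below are CPM, expected counts brought to a common library total after TMM scaling in edgeR, unless FPKM, which is also divided by transcript length, is named. At these depths 3 counts correspond to 0.606 to 0.639 CPM, and the lowest member, Rel, had at least 59 counts in every library. Trim24, the targeted gene, was read at 5.82, 2.12, 3.43 and 0.411 CPM, so the groups overlapped and the transcript level does not bear out the labels of all libraries. These counts cover the whole gene and can include exons that a deletion leaves in place. KO 1 and KO 2 are therefore called the libraries labelled Trim24-deficient. Xist, expressed from the inactive X, was at 10.9, 6.51, 437 and 256 CPM, and Ddx3y, a gene of the Y chromosome, at 73.6, 102, 0.426 and 0.411 CPM. Both parted the groups, so sex and genotype cannot be told apart in any difference below. All 10 macrophage markers, Csf1r and Adgre1 (F4/80) among them, were above 0. Their CPM summed to 18670, 16610, 19740 and 20280, with KO 1 and KO 2 above both WT libraries and WT 2 the lowest. In bulk RNA, fewer cells of a type and less RNA per cell cannot be told apart.

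Upstream sequence is shown for 5 members because it carries matches to the κB consensus, the pattern that NF-κB dimers bind. RefSeq promoter windows of GRCm38.p6, 250 bases before to 50 after a transcription start, were at hand for 7 of the 10 members, and Nfkb1, Relb and Nfkbiz have no entry there. Both strands were searched and overlapping matches were joined into 1 run. The consensus was present in a window of 5 of the 7 members, Tnfaip3, Nfkbia, Nfkbie, Rel and Nfkb2, whereas 5.14% of 27025 genes with a window hold it. A looser pattern of 3 G, any 5 bases and 2 C, which the consensus is a case of, was in 6 of the 7 members and in 53.5% of all genes. Capitals mark the consensus matches, and each stretch is written 5′ to 3′ in the direction of its gene. For Tnfaip3, Nfkbia and Nfkbie the 130 bases before the start are given, with coordinates of chr10:19015411-19015540 (minus strand), chr12:55492648-55492777 (minus strand) and chr17:45555570-45555699 (plus strand). For Rel and Nfkb2, whose upstream stretch overlaps an exon annotated in GENCODE, 30 bases around the first match are given, at chr11:23771042-23771071 (minus strand) and chr19:46304688-46304717 (plus strand).
Tnfaip3: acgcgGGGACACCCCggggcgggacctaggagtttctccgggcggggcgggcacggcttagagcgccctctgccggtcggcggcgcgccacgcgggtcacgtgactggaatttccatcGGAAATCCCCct
Nfkbia: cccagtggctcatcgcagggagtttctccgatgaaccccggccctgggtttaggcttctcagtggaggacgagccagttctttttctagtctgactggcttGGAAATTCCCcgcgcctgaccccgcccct
Nfkbie: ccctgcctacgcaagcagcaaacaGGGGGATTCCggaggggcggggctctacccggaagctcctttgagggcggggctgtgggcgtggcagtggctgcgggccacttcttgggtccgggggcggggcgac
Rel: cgtaagcagcGGGAAATCCCCccccctccc
Nfkb2: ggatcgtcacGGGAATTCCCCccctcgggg

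Counted from the transcription start, with negative numbers upstream, the Tnfaip3 matches lay at -125 to -116 and at -12 to -3. The single Nfkbia match lay at -29 to -20 and that of Nfkbie at -106 to -97. In Rel, 2 overlapping matches filled -92 to -82. Nfkb2 had a run at -39 to -29 and a further match, GGGGCTTTCC, at -11 to -2. The windows of 2 further Nfkb2 starts held matches too, and that of a second Tnfaip3 start held none. Nfkbib and Rela held no match to the consensus in their windows. These matches describe the sequence only, since no binding was measured in these libraries.

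**Figure D1:**
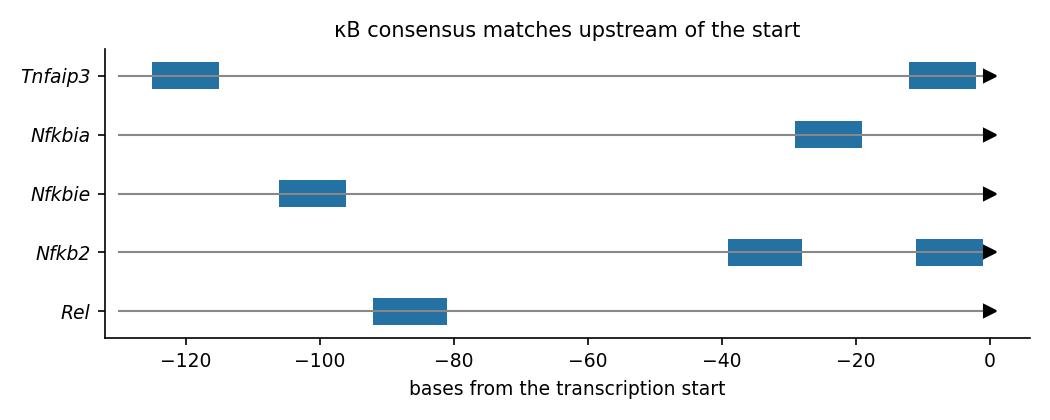
Positions of κB consensus matches (blue blocks, to scale) in the 130 bases before a transcription start of 5 members, with the distance from the start in bases on the x axis and the start as an arrowhead. Tnfaip3 and Nfkb2 each hold 2 separate runs, and Nfkbia, Nfkbie and Rel hold 1.

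The members differed far more from each other than any of them differed between the groups. Per transcript length, Nfkbia was the most abundant, with a mean of 182 FPKM over the 4 libraries and a range of 134 to 219, above the range of every other member. Nfkbib followed at 39.1 FPKM (31.2 to 46.6) and Rela at 30.6 FPKM (24.3 to 32.9). Then came Nfkbiz, Nfkb2, Nfkbie and Nfkb1, between 20.2 and 16.9 FPKM on average, and Tnfaip3 at 12.8 FPKM (6.91 to 16.9). Neighbours in this order from Nfkbib down to Relb had overlapping ranges. Compared within each library, Rela lay above Nfkbiz in all 4. The other neighbouring pairs changed order between libraries, so their order is not fixed by these libraries. Relb, at 10.9 FPKM (8.50 to 14.0), lay above Rel, which was the least abundant at 5.56 FPKM (4.38 to 6.53). The inhibitor of Rela-containing dimers encoded by Nfkbia was thus the top transcript of the family in every library, and c-Rel the lowest.

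**Figure D2:**
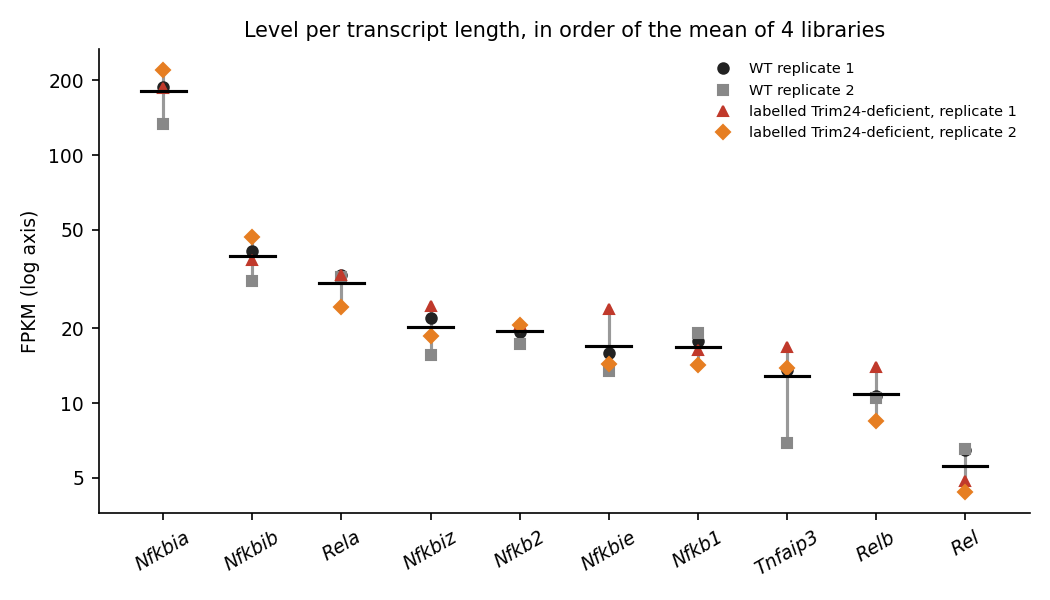
FPKM (log axis) of the 10 members in each library, ordered by the mean of the 4 libraries (black bar), with grey lines from the lowest to the highest library. Nfkbia lies at 134 to 219 FPKM, clear of all others, and Rel at 4.38 to 6.53 FPKM, below all others.

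None of the 10 members passed the test between the groups. A call needed a fold change over 1.5 and, in the quasi-likelihood test of edgeR, a Benjamini-Hochberg FDR under 0.05 over the 11302 genes that passed the low-count filter, which kept all 10 members. By that rule 42 genes were called, 0.372% of those tested, of which 33 (0.292%) were higher and 9 (0.0796%) lower in KO 1 and KO 2 than in WT. DESeq2 called 1.38% of the genes tested and none of the 10 members, and limma on log2(FPKM + 1) called none of them either. At an unadjusted p under 0.05 in edgeR, 1 of the 10 members passed, Tnfaip3, against 12.2% of all genes tested. The groups did not overlap in CPM for 5 members, while 44.5% of all genes tested did not overlap either. Of the 5, 3 were higher and 2 lower in both libraries labelled Trim24-deficient, against 21.5% and 23.0% of all genes tested. With 2 libraries against 2, an exact two-sided permutation test of a single gene cannot go below 0.333. The median log2 fold change, labelled Trim24-deficient over WT, was 0.33 for the members and -0.01 for all genes tested.

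The 5 subunits showed no common direction. Their fitted log2 fold changes ran from -0.35 to 0.32 with a median of -0.04, 2 above 0 and 3 below. Their CPM summed to 257, 245, 278 and 233. KO 2 was the lowest library for 4 of the 5 subunits, and it was the lowest for 28.8% of all genes tested.

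Rela encodes p65, the transactivating partner of the canonical dimer, and lies on chr19:5637442-5648134 of GRCm38. Its level was 86.8, 82.3, 94.1 and 70.5 CPM. The libraries labelled Trim24-deficient were the highest and the lowest, so the groups overlapped fully. The log2 fold change was -0.04 (SE 0.20, 95% interval -0.49 to 0.41, adjusted p = 0.958 by edgeR, the tool behind all adjusted p-values of single genes below unless another is named). Its sign turned to 0.01 without WT 1 and to 0.15 without KO 2.

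Nfkb1, on chr3:135584655-135691969, encodes p105, the precursor of the DNA-binding p50 that pairs with p65. It was measured at 72.3, 74.8, 71.4 and 63.1 CPM. Both libraries labelled Trim24-deficient lay below both WT libraries, KO 1 by a small margin. The log2 fold change of -0.13 (SE 0.18, 95% interval -0.54 to 0.28) had an adjusted p of 0.822. The highest library was 1.19 times the lowest, the narrowest spread of any member.

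Rel, on chr11:23736847-23770969, encodes c-Rel, a subunit known for roles in lymphocytes and in Il12b expression of myeloid cells. Its CPM was 16.4, 15.8, 13.2 and 12.1, from 81, 76, 62 and 59 counts. Both WT libraries were above both of the others, with a narrow spread within each group. Its log2 fold change was -0.35 (SE 0.27, 95% interval -0.96 to 0.27, adjusted p = 0.643). It was the lowest of the 10 members and stayed below 0, between -0.49 and -0.29, under all 14 other settings tried.

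The non-canonical subunits, which act downstream of receptors such as CD40 and the lymphotoxin receptor, were Nfkb2, encoding p100 and p52, and Relb. Nfkb2, on chr19:46300994-46312400, was at 57.9, 49.8, 66.9 and 67.2 CPM. Both libraries labelled Trim24-deficient were higher than both WT libraries and nearly equal to each other. Its log2 fold change was 0.32 (SE 0.19, 95% interval -0.11 to 0.74, adjusted p = 0.537). Psd and a long noncoding RNA overlap Nfkb2 on the opposite strand, and since the sources used here do not say whether the libraries keep strand, their reads may not be separated. Relb, on chr7:19606217-19629438, was at 23.2, 21.9, 32.6 and 20.1 CPM. KO 1 alone stood above the rest and KO 2 was the lowest. The log2 fold change of 0.22 (SE 0.27, 95% interval -0.39 to 0.83, adjusted p = 0.787) turned to -0.16 without KO 1.

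Ratios of FPKM between subunits within a library, chosen after the values were seen, do not depend on library scaling. They can still carry a trend with transcript length. Over all genes tested, the Spearman correlation of log2 fold change with length was -0.249. With the length trend removed, the log2 fold change of Nfkb1 was -0.04 and that of Nfkb2 0.34. The ratio of Nfkb2 to Nfkb1 was 1.09, 0.903, 1.28 and 1.46, so the non-canonical precursor was the more abundant of the pair in both libraries labelled Trim24-deficient and in WT 1. The ratio of Relb to Rela was 0.328, 0.326, 0.424 and 0.350, and that of Rel to Rela was 0.198, 0.202, 0.147 and 0.180. In all 3 ratios the groups were apart, the first 2 higher and the last lower in the libraries labelled Trim24-deficient, each with an exact permutation p of 0.333, the smallest possible here.

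All 5 feedback inhibitors had a fitted log2 fold change above 0, between 0.34 and 0.73 with a median of 0.47, but none was called. Of all genes tested, 49.4% had a fitted change above 0. The summed level of the 5 was 522, 352, 599 and 615 CPM, with KO 1 and KO 2 above both WT libraries. WT 2 was the lowest library for all 5 inhibitors, whereas it was the lowest for 25.7% of all genes tested. Without WT 2 all 5 fitted changes were still above 0, with a median of 0.22, and without WT 1 the median was 0.70.

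Tnfaip3, on chr10:19000910-19015410, encodes A20, a ubiquitin-editing enzyme that shuts off signalling from TNF and Toll-like receptors. It was read at 58.4, 29.0, 79.0 and 65.8 CPM, from 289, 139, 371 and 320 counts. Both libraries labelled Trim24-deficient were higher than both WT libraries, and the WT libraries differed from each other more than WT 1 differed from KO 2. On the log2 scale the fitted change was 0.73 (SE 0.30, 95% interval 0.06 to 1.40), a 1.66-fold difference. In edgeR's test its unadjusted p was 0.0367 and its adjusted p was 0.373, and an exact permutation test over the libraries gave 0.333. It was the largest fitted change of any member, and WT 2, its lowest library, lay 2.73 times below KO 1, the highest. Over the other settings tried the log2 fold change lay between 0.31 and 1.33. Tnfaip3 would be called without KO 2 (log2 fold change 0.85, adjusted p = 0.031), a fit in which KO 1 is assumed to vary like the WT libraries.

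Nfkbia, on chr12:55489409-55492647, encodes IκBα, the inhibitor that is degraded and resynthesised fastest in the canonical pathway. Its level was 291, 198, 309 and 371 CPM. Both libraries labelled Trim24-deficient lay above both WT libraries, KO 1 by only a little over WT 1. The log2 fold change was 0.47 (SE 0.24, 95% interval -0.06 to 1.0), a 1.39-fold difference, with an adjusted p of 0.447. Relative to Rela within each library, Nfkbia stood at 5.76, 4.13, 5.64 and 9.03 by FPKM. KO 2 was the highest here but KO 1 lay below WT 1, so the groups overlapped (exact permutation p = 0.667).

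Nfkbie, on chr17:45555700-45563169, encodes IκBε, a slower inducible inhibitor. It was at 38.0, 30.6, 61.3 and 37.6 CPM. Only KO 1 stood apart, at 2.0 times the lowest library, and KO 2 lay within the WT range. Its log2 fold change was 0.53 (SE 0.26, 95% interval -0.06 to 1.12, adjusted p = 0.449). Without KO 2 it was 0.84 with an adjusted p of 0.0186, past the threshold. The call in that fit rests on KO 1 as the single library of its group.

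Nfkbib, on chr7:28758251-28766644, encodes IκBβ, which is less dependent on NF-κB for its expression than IκBα. It was at 56.1, 40.8, 55.2 and 68.8 CPM. KO 2 was the highest and WT 2 the lowest, with WT 1 and KO 1 close together between them. The log2 fold change of 0.35 (SE 0.23, 95% interval -0.15 to 0.86) had an adjusted p of 0.558. Ccer2 and Sirt2 overlap Nfkbib on the opposite strand, with the same limit on strand as for Nfkb2.

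Nfkbiz, on chr16:55811375-55838954, encodes IκBζ, a nuclear member of the IκB family that also assists p50 in switching on secondary response genes such as Il6 and Lcn2. It was at 77.9, 54.2, 94.6 and 72.5 CPM. KO 1 was the highest and WT 2 the lowest, and KO 2 lay below WT 1. Its log2 fold change was 0.34 (SE 0.23, 95% interval -0.18 to 0.86, adjusted p = 0.587).

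**Figure D3:**
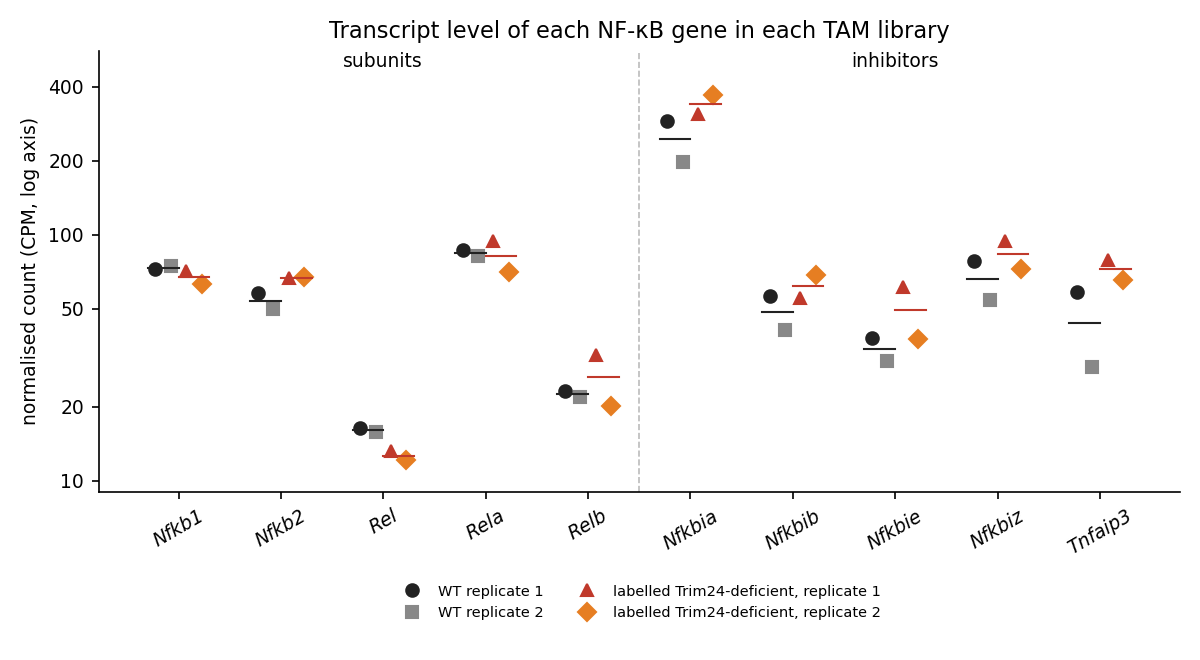
Normalised count (CPM, log axis) of each member in each of the 4 libraries (symbols), with short lines for the mean of the 2 WT (black) and the 2 labelled Trim24-deficient libraries (red). WT 2 is the lowest point for all 5 inhibitors, and KO 2 is the lowest for 4 of the 5 subunits.

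**Figure D4:**
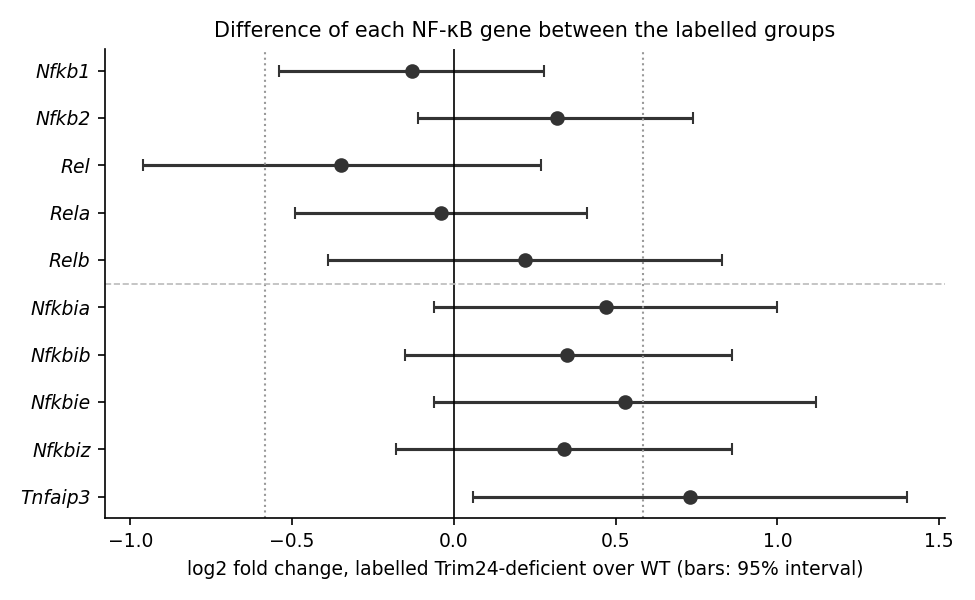
Fitted log2 fold change of each member, labelled Trim24-deficient over WT, with 95% intervals, and dotted lines at a fold change of 1.5 either way. The interval of Tnfaip3 (0.06 to 1.40) is the only one that does not hold 0.

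The FPKM of Nfkbia, Nfkbib and Nfkbie together was 2.82, 2.07, 2.78 and 3.89 times that of the 5 subunits together, a ratio chosen after the values were seen. Nfkbia, at 219 FPKM in KO 2, made up most of this sum. The groups overlapped through WT 1 and KO 1 (exact permutation p = 0.667). The ratio of Tnfaip3 to Rela, at 0.414, 0.214, 0.513 and 0.571, parted the groups (exact permutation p = 0.333).

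The 5 members with a κB consensus match in a printed stretch did not share a direction. Tnfaip3, Nfkbie, Nfkbia and Nfkb2 had fitted changes of 0.73, 0.53, 0.47 and 0.32, and Rel had -0.35. Nfkbib and Rela, with windows but no match, had 0.35 and -0.04.

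Around the 10 members, lists of the wider pathway gave 3 called genes among 83 tested, all 3 with higher levels in KO 1 and KO 2. Of these 83, 25 had an unadjusted p under 0.05 in the higher direction and 2 in the lower, against 6.58% and 5.62% of all genes tested. The other atypical IκB proteins, Bcl3 and Nfkbid, were both below 0 in fitted change and not called. Bcl3, a nuclear partner of p50 and p52, was at 13.9, 16.7, 13.6 and 11.7 CPM. Nfkbid, known for roles in lymphocytes, was at 16.4, 24.6, 20.2 and 17.3 CPM.

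None of 13 other brakes of the pathway was called, with 8 above and 5 below 0 and a median of 0.27. At an unadjusted p under 0.05, 4 were higher and 1 lower. The deubiquitinase Cyld was at 182, 250, 188 and 241 CPM, without a gap between the groups. Tax1bp1, an adaptor that helps A20 reach its substrates, was at 161, 149, 210 and 197 CPM, above both WT libraries in both others (log2 fold change 0.39, SE 0.18, adjusted p = 0.422). Tank, a TRAF-binding regulator, was at 76.3, 77.3, 100.7 and 84.0 CPM.

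Among 26 IKK subunits, related kinases and adaptors, none was called either, 18 were above 0, and 3 were higher and 1 lower at an unadjusted p under 0.05. Myd88, the adaptor of IL-1 and most Toll-like receptors, was at 205, 197, 342 and 298 CPM (log2 fold change 0.67, SE 0.19, adjusted p = 0.214). Ikbke, an IKK-related kinase known for interferon induction, was at 94.7, 76.9, 218 and 160 CPM (log2 fold change 1.14, SE 0.22, adjusted p = 0.0774). Both genes were higher in both libraries labelled Trim24-deficient. Ikbke was past the threshold with DESeq2, which gave 1.15 and an adjusted p of 0.00259, and not with limma on log2(FPKM + 1), which gave 0.96 and 0.219. With 1 library left out, the log2 fold change of Ikbke in edgeR lay between 0.9 (without KO 1) and 1.34 (without KO 2). That of Myd88 lay between 0.57 (without KO 1) and 0.77 (without KO 2). Rbck1, a subunit of the linear ubiquitin ligase, was at 116, 99.8, 125 and 113 CPM, with overlapping groups.

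Of 18 receptors and ligands 15 were tested and 2 were called, both cytokines that signal through the IL-1 receptor. Il1b was at 28.7, 33.8, 106 and 189 CPM, with a log2 fold change of 2.24 (SE 0.28, adjusted p = 0.0123). Il1a was at 1.01, 2.29, 12.8 and 43.2 CPM, from 5 and 11 counts in the WT libraries, with a log2 fold change of 4.07 (SE 0.65, adjusted p = 0.0371). KO 2 had the highest level of both. Neither was called by limma on log2(FPKM + 1), with adjusted p-values of 0.0782 for Il1b and 0.161 for Il1a, and Il1a was not called with library totals (0.0709), with upper-quartile scaling (0.0519) or after the trend with transcript length was removed (0.0685). At an unadjusted p under 0.05 in edgeR, 3 of the 15 were higher and 0 lower. The receptor Cd40, named after its values were seen, was at 66.0, 46.7, 150.8 and 95.55 CPM (log2 fold change 1.13, SE 0.26, adjusted p = 0.141). Cd40 was thus higher in both libraries labelled Trim24-deficient. The 3 receptors of highest mean CPM showed smaller differences. Tnfrsf1b, the second TNF receptor, was at 234, 218, 308 and 282 CPM (log2 fold change 0.39, SE 0.19, adjusted p = 0.442). Tnfrsf1a, at 189, 192, 251 and 183 CPM, and Tlr2, at 154, 150, 157 and 146 CPM, had overlapping groups.

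In the list of 30 known NF-κB target genes, 27 were tested, 25 had a fitted change above 0, and 1 was called. At an unadjusted p under 0.05, 15 were higher and 0 lower, against 6.58% and 5.62% of all genes tested. In both libraries labelled Trim24-deficient 18 were higher, against 21.5% of all genes tested. The median log2 fold change was 0.71. The 15 and the 18 both include Bcl2a1a, Bcl2a1b and Bcl2a1d, named after their values were seen. Their expected counts were not whole numbers, so they may share reads and not be separate observations. The called gene was Ptgs2, which encodes the inducible cyclooxygenase, at 17.6, 11.7, 61.8 and 105 CPM (log2 fold change 2.51, SE 0.31, adjusted p = 0.0112 in edgeR and 0.0782 in limma on log2(FPKM + 1)). Without WT 2 the number higher at an unadjusted p under 0.05 was 6, with a median of 0.50. These counts are descriptions.

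Several target genes below the threshold were singled out after their values were seen. Nos2, the inducible nitric oxide synthase, was at 12.5, 2.50, 45.4 and 49.5 CPM (log2 fold change 2.65, SE 0.49, adjusted p = 0.0697). Sod2, the mitochondrial superoxide dismutase, was at 204, 155, 373 and 331 CPM (0.97, SE 0.21, adjusted p = 0.12). Birc3, which encodes cIAP2, was at 46.0, 44.0, 94.6 and 70.6 CPM (0.87, SE 0.21, adjusted p = 0.151), and Icam1, an adhesion molecule, was at 170, 141, 322 and 207 CPM (0.76, SE 0.24, adjusted p = 0.25). All of these were higher in both libraries labelled Trim24-deficient. In edgeR, Nos2 would be called when any 1 library was left out, for example without WT 2 (1.92, adjusted p = 0.0362), fits in which the lone library is assumed to vary like the other group. Nos2 was not called with DESeq2 (adjusted p = 0.252), with limma on log2(FPKM + 1) (0.168), with library totals (0.116) or with upper-quartile scaling (0.101). Sod2 was called with DESeq2 (0.00745) and not with limma on log2(FPKM + 1) (0.237). Birc3 and Icam1 were not called with DESeq2 (0.0963 and 0.171). With 1 library left out, the log2 fold change of Sod2 in edgeR lay between 0.78 (without WT 2) and 1.19 (without WT 1). That of Birc3 lay between 0.65 (without KO 1) and 1.07 (without KO 2). For Icam1 the range was 0.41 (without KO 1) to 1.05 (without KO 2). The 3 targets of highest mean CPM, Ccl2, Cxcl10 and Bcl2l1, had fitted changes of 0.08, 0.30 and 0.26. Ccl4, the next by mean CPM, had 0.76 (SE 0.23, adjusted p = 0.224). Ccl2, a monocyte chemoattractant, was at 1259, 1260, 1177 and 1486 CPM, Cxcl10, an interferon-inducible chemokine, at 322, 232, 509 and 174 CPM, and Bcl2l1, which encodes the survival factor Bcl-xL, at 267, 272, 283 and 362.5 CPM.

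**Figure D5:**
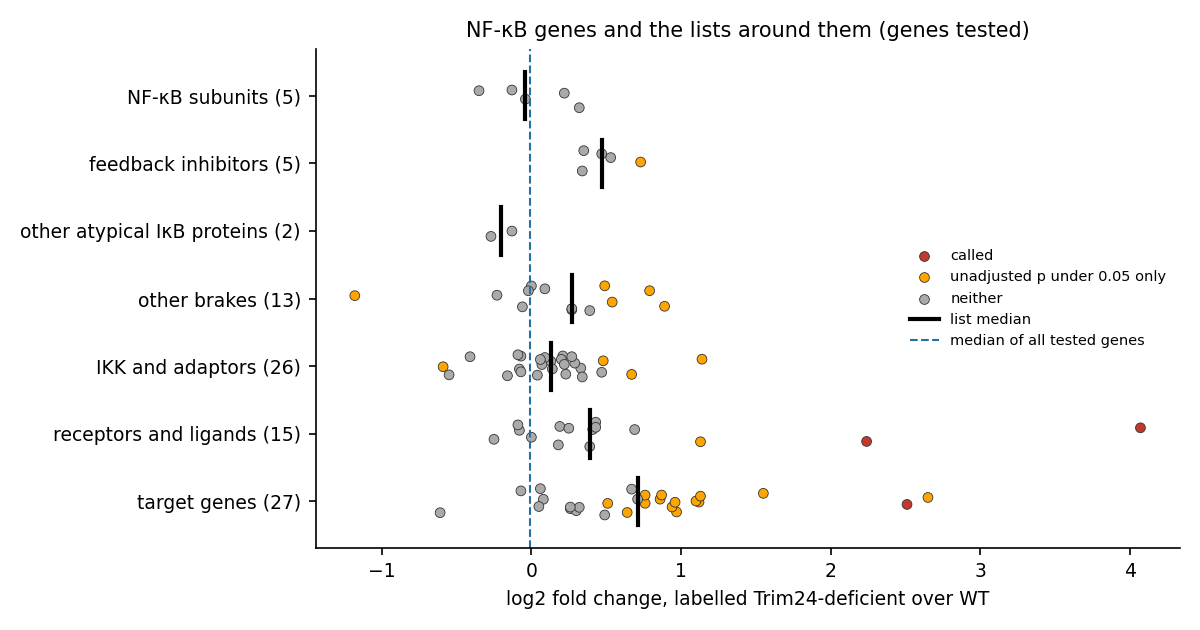
Fitted log2 fold change (labelled Trim24-deficient over WT) of each tested gene in the subunits, the feedback inhibitors and 5 lists around them, with the number tested in brackets, list medians as black bars and the median of all tested genes as a dashed line. The subunits centre on -0.04, the inhibitors on 0.47 and the target genes on 0.71, and the 3 called genes are 2 ligands and 1 target.

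Markers of other cells and of handling differed between the libraries as well. The 4 monocyte markers summed to 507, 628, 1635 and 1023 CPM, higher in KO 1 and KO 2 than in both WT libraries. The 6 neutrophil markers summed to 180, 213, 272 and 418 CPM. Of these 6, 5 were tested, and 3 of the 5 were higher in both libraries labelled Trim24-deficient, against 21.5% of all genes tested. They were S100a8 (17.4, 15.6, 35.1 and 118 CPM), S100a9 and Csf3r. Retnlg, which did not pass the low-count filter, was also higher in both. Cxcr2 (63.5, 83.9, 42.9 and 76.9 CPM) and Mmp9 overlapped between the groups. The 7 T and NK cell markers summed to 89.4, 55.9, 210 and 67.4 CPM, with Trac listed in none of the tables, and the 6 dendritic cell markers to 47.96, 44.1, 78.4 and 36.3 CPM. KO 1, the library that stood apart for Relb and Nfkbie, had the highest sum for both of these last lists. The dendritic cell markers did not share this order, and Xcr1 alone made up 46.5 CPM of their sum in KO 1. Cd209a (3.635, 11.67, 3.195 and 3.288 CPM) was lowest in KO 1, and Ccr7 (13.5, 7.50, 11.9 and 17.5 CPM) was highest in KO 2. Of the 5 dendritic cell markers tested, 2 were lower and 0 higher in both libraries labelled Trim24-deficient. The shares of all genes tested were 23.0% and 21.5%. Melanoma markers summed to 780, 736, 581 and 788 CPM. Of the 5 melanoma markers, all tested, 4 had a fitted change below 0 and none was called. In both libraries labelled Trim24-deficient 3 were lower and 0 higher, against 23.0% and 21.5% of all genes tested. Tyr, at 411, 424, 375 and 496 CPM, made up most of the melanoma sum and overlapped between the groups. B cell markers summed to between 46.2 and 55.4 CPM. Fibroblast and endothelial markers summed to 17.8, 12.1, 39.6 and 26.1 CPM, higher in both libraries labelled Trim24-deficient. Pecam1, at 15.9, 5.63, 36.0 and 21.99 CPM, made up most of that sum in WT 1, KO 1 and KO 2 but not in WT 2. The 12 immediate early genes, which respond to cell isolation within minutes, summed to 2124, 1331, 1646 and 1561 CPM. WT 2 had the lowest sum. It was also the lowest library for Jun, Junb, Atf3, Ier2, Zfp36 and Nr4a1, but not for the other genes of this list. For comparison, WT 2 was the lowest for 25.7% of all genes tested. Fos, at 414, 225, 203 and 167 CPM, was lowest in KO 2, and Dusp1, at 421, 176.5, 153 and 247 CPM, in KO 1. Fitted changes were above 0 for 7 and below 0 for 5. At an unadjusted p under 0.05 in edgeR, 1 was higher and 3 lower, against 6.58% and 5.62% of all genes tested. The part of these cells and responses in the values of the members was not tested.

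By the profile over the 4 libraries, the genes outside the family closest to the mean of the 10 members were Psma2, N4bp1 and Rbm18. Likeness was the root mean square difference of log2 CPM after centring each gene on its own mean of the 4 libraries, at 0.017, 0.017 and 0.018. The centred mean profile of the members was 0.04, -0.28, 0.23 and 0.02. They are the closest of 11302 genes over only 4 libraries and are named as a description.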

How the data were processed

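TAM libraries of 2 WT and 2 Trim24-deficient samples were grouped by their genotype labels. Reads were aligned by the authors to GRCm38/mm10 (Bowtie) and quantified per gene with RSEM; the tools' versions are not given in the sources used here. For each library the authors deposited an expected count per gene, which is not normalized, and an FPKM value, scaled to transcript length and library total. A transcript length was deposited too, used only for the length correction and for the correlation of log2 fold change with length. A gene absent from a library's table was set to 0. Symbols were matched by Entrez identifier for 16698 of 16739 genes.

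Expected counts were rounded, filtered with filterByExpr (11302 genes kept), scaled by TMM (factors 1.03, 1.08, 0.957 and 0.943) and tested with edgeR 4.0.16 (glmQLFit, glmQLFTest) in R 4.3.3 with genotype as the only term. A call required an FDR under 0.05 together with a fold change over 1.5, thresholds taken from the methods of the study. Standard errors are the log2 fold change divided by the square root of F. Totals of 4476122 to 5172407 expected counts limit precision, and the floor of 3 counts covers counting error only. Alternatives were DESeq2 1.42.0, limma 3.58.1 on FPKM after log2 transformation with a pseudocount of 1 or 0.1 for genes at FPKM 1 or more in at least 2 libraries or for all genes, library totals, upper-quartile scaling, other count filters, a length correction, the replicate block, other thresholds and each library left out. The scripts were tested on simulated data.

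The members, lists and tests were chosen with earlier results of these data known. All members are named, with every called gene of the pathway lists, the 3 genes of highest mean CPM in each of these lists, Trim24, Xist and Ddx3y; other genes are named as chosen after their values were seen or as markers. The value of 1 marker gene is not reported here. Promoter windows are from RefSeq, and gene positions and overlaps from GENCODE vM21, both on GRCm38.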

Additional observations from a re-analysis of the deposited data

How the results depend on the processing

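The 5 inhibitors kept a fitted change above 0 under all 14 other settings, and the sign of a member turned only for Rela (0.01 without WT 1 and 0.15 without KO 2, with a lowest value of -0.26 without KO 1) and Relb (-0.16 without KO 1, with a highest value of 0.53 without KO 2). No member was called under the other scalings, filters, DESeq2 or limma. The count of members called went from 0 to 1 with an unadjusted p and to between 0 and 2 when each library was left out, the 2 being Tnfaip3 and Nfkbie without KO 2. The members' median of 0.33 ranged from 0.13 to 0.53 when each library was left out and from 0.18 to 0.34 otherwise. With library totals the median of all genes shifted to -0.15 and that of the members to 0.18. Over all genes the 42 calls became 156 with DESeq2, 1080 at an unadjusted p with the fold limit, 23 (14 higher, 9 lower), 20 (11 higher, 9 lower) and 0 with the limma fits at pseudocounts of 1, 0.1 and without a filter, and 22 to 743 when each library was left out, 22 without WT 2 and 743 without KO 2. Pathway list genes called went from 3 to 6 with DESeq2, to 0, 0 and 0 in the limma fits, to 23 at an unadjusted p, and to between 4 and 23 when each library was left out. The cause of these shifts was not tested.

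The replicate numbers of the labels are not said to mark shared litters or days. Same-numbered libraries deviated from their group means with a correlation of 0.165, and 2 pairs are too few to tell whether the numbers mark a shared batch. With the replicate block 634 genes, 1 member (Tnfaip3, log2 fold change 0.79, adjusted p = 0.00924 by edgeR) and 21 pathway list genes were called. Depth limits Rel most, at 59 to 81 counts per library.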
